A study of Mus musculus with 10 samples.

Results

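The interferon response and class I antigen presentation were followed through 39 genes in mouse hearts labelled control or Prdm16 knockout. The genes were chosen by name for their role, with earlier results of these data known. They comprise 25 interferon-induced genes and 14 genes that make, transport or display the peptides of class I molecules. All 39 were found in both deposited tables, among 46786 genes at 3 months and 46977 at 12 months.

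RNA-seq measured transcript levels in whole dissected hearts, and the series title concerns cardiac enlargement and failure that depend on age. Control and Prdm16 knockout hearts were compared at 3 months (3 libraries each) and at 12 months (2 libraries each). Prdm16 is a zinc-finger regulator of transcription. The labels give no strain, sex or litter for any group. How the knockout was made, and in which cells, is not stated by these labels, and nothing beyond the labels says that libraries came from separate animals. P-values therefore measure the spread between these samples, which may be partly technical. The 12-month libraries were prepared and sequenced elsewhere, so levels are compared only within an age.

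Interferons are secreted signals of infection and tissue stress. Type I interferon acts through a complex that holds STAT2 and IRF9 and binds a promoter element called ISRE, while interferon gamma acts through an element called GAS. Among the genes they raise are antiviral effectors such as Isg15 and the Ifit genes, and the machinery of class I presentation. In that machinery the immunoproteasome cuts peptides, TAP carries them into the endoplasmic reticulum, and heavy chains paired with beta-2 microglobulin show them at the cell surface. Nlrc5 is the transactivator of class I genes.

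Promoters were available for 32 of the 39 genes in the RefSeq table (GRCm38.p6), each running from 250 bases before the start to 50 after it. The ISRE core was searched on both strands as a pair of GAAA runs with any 2 bases between them, and GAS as TTCNNNGAA, which reads the same on both. A match to the ISRE core was found in 15 of 32 members (46.9%), against 3.99% of 27025 genes with a promoter in the table. It was found in 12 of 20 interferon-induced genes and 3 of 12 antigen presentation genes, the latter being B2m, H2-T23 and Psme1. GAS matches were found in 8 of 32 members (25%) and 9.55% of all genes. Overlapping matches counted once per gene. A match is a description of letters and not a site shown to be bound. Only exact letters within the window were searched, so the lack of a match does not show that an element is absent.

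The 150 bases before the start are shown for 4 genes whose levels are described below, 5′ to 3′ on the gene's own strand, with matches to the ISRE core in capitals. Isg15 carries 3 overlapping matches and Ifit1 carries 2 (read on the opposite strand), while B2m carries 1 and this H2-K1 stretch none. Isg15 lies at chr4:156200819-156200968 (minus strand), Ifit1 at chr19:34640739-34640888 (plus), B2m at chr2:122147537-122147686 (plus) and H2-K1 at chr17:34000334-34000483 (minus).
Isg15: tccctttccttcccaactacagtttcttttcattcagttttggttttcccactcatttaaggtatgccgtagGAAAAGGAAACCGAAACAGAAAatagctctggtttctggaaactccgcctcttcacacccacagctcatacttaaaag
Ifit1: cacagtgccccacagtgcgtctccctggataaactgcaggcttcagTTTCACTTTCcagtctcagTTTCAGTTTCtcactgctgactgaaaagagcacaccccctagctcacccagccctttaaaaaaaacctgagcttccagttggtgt
B2m: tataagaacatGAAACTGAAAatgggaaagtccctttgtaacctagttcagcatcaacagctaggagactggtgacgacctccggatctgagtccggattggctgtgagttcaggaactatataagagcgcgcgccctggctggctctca
H2-K1: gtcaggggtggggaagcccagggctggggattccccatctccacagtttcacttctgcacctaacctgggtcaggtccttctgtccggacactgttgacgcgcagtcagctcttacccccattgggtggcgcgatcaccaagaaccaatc

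Some facts of the libraries bear on every value. Prdm16 itself overlapped between the labels at 3 months (0.760 to 2.23 FPKM over the 6 libraries) and was lower in both 12-month knockouts (4.02 and 3.58 FPKM) than in the controls (6.31 and 5.05 FPKM). Reads from exons that a deletion leaves intact still count here, so this is a weak check of the labels. At 3 months knockout library 2 stood apart from the other knockouts, with a robust SD of log2 ratios of 0.28 and 0.31 against 0.14 between knockouts 1 and 3. At 12 months the controls expressed Xist (33.1 and 31.0 FPKM) and the knockouts Ddx3y (24.5 and 20.7 FPKM), so sex-linked expression and label cannot be told apart at that age. The 12-month controls differed from each other by little more than read sampling (median squared difference over counting variance 1.01 to 1.24 for genes under 1000 reads, against 2.41 to 18.4 for the knockouts). They were kept as 2 samples, and counting them as 1 left 0 called genes of any kind. In bulk tissue, a change in the number of cells of a type and a change in RNA per cell cannot be told apart.

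At 3 months, 37 of 39 members were higher in the knockout mean, against 65.0% of all genes. After rescaling by the median of ratios or to TPM it was 36 of 39, where Irf9 also lay below 0, against 50.4% and 50.3% of genes. The median difference over the 39 was 0.36 on the log2(FPKM + 1) scale, on which all differences here are given, against 0.09 for all 12200 genes tested. Rescaling by the median of ratios gave 0.25 and rescaling to TPM gave 0.26, with the median of all genes at 0.00 in both. All 39 members passed the filter of a mean of at least 1 FPKM. None was called by limma (Benjamini-Hochberg adjusted p under 0.05 over all genes), where 0.746% of genes were. The unadjusted p was under 0.05 for 14 of 39 members, all higher in the knockouts, where it was for 18.2% of genes (15.9% higher), and limma without a trend called 0 as well. The libraries of the 2 labels did not overlap for 12 members, all higher, against 20.1% of genes higher, 4.6% lower and 24.7% in either direction. After the median-of-ratios rescaling it was 7 members higher and Oas2 lower (12.7% of genes higher, 25.5% in either direction), and after TPM rescaling 10 higher (9.01% and 12.1%).

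The 14 antigen presentation genes were all higher in the knockout mean at 3 months, with a median of 0.40. The 25 interferon-induced genes had a median of 0.33, and 23 of 25 were higher (22 after either rescaling). Library by library, the antigen presentation genes had medians of 0.19, −0.05 and −0.13 in the controls and 0.26, 0.66 and 0.27 in the knockouts, relative to the control mean. Those groups did not overlap in the values as deposited. The medians of all genes tested were −0.02, 0.09 and −0.08 in the controls and 0.05, 0.13 and 0.08 in the knockouts. From control 1 to knockout 3 the antigen presentation median rose by less (0.19 to 0.27) than the median of all genes (−0.02 to 0.08). The lack of overlap is therefore not separate from shifts of whole libraries. Medians by library were not taken after rescaling. Singly, 7 of the 14 genes lay higher without overlap, 4 after median-of-ratios rescaling and 6 after TPM rescaling. Of all genes 20.1%, 12.7% and 9.01% did so, and 24.7%, 25.5% and 12.1% in either direction. For the interferon-induced genes the medians were 0.27, −0.07 and −0.21 in the controls and 0.12, 0.73 and 0.09 in the knockouts. There control 1 lay above knockouts 1 and 3. No test of the difference between the 2 gene sets was made.

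**Figure D1:**
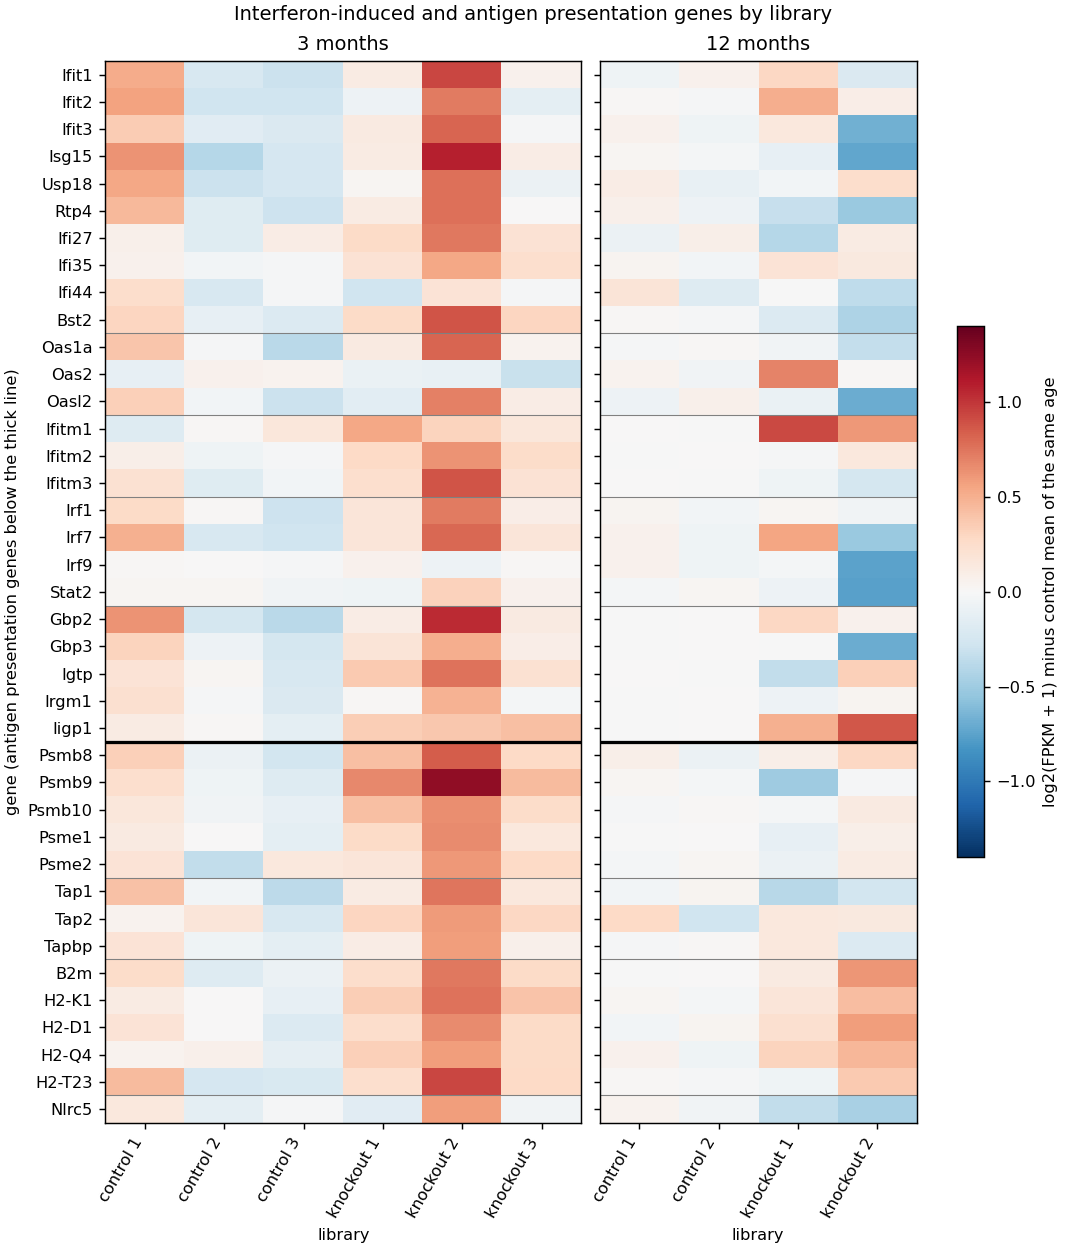
Level of each of the 39 genes (rows) in each library (columns) as log2(FPKM + 1) minus the control mean of the same age, red above and blue below. Knockout 2 of 3 months is the darkest red column, and control 1 is redder than controls 2 and 3 in most interferon-induced rows.

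One library in each 3-month group carried most of the high values. Control 1 was the highest control for 33 of 39 members, against 30.2% of all genes, and for 20 of 39 (51.3%) after TPM rescaling, against 8.51% of all genes. Knockout 2 was the highest knockout for 35 of 39 members, against 50.1% of all genes, and for 35 after either rescaling, against 30.0% of all genes in TPM. It was the highest for all 14 antigen presentation genes. The exceptions were Irf9, Ifitm1, Oas2 and Iigp1. Without knockout 2 the median of the interferon-induced genes was 0.11 with 19 of 25 higher, and that of the antigen presentation genes was 0.26 with 13 of 14 higher. The median of all genes tested without knockout 2 was 0.06. Without control 1 the medians were 0.45 for the interferon-induced and 0.50 for the antigen presentation genes, against 0.07 for all genes.

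Among the type I effectors, Isg15, a ubiquitin-like protein attached to other proteins, read 95.9, 46.6 and 52.5 FPKM in the 3-month controls and 66.9, 132 and 66.4 FPKM in the knockouts. Control 1 exceeded knockouts 1 and 3, so the groups overlapped. The means were 65.0 ± 26.9 and 88.4 ± 37.8 FPKM (SD, n = 3 each), and the difference of 0.43 (SE 0.33) was within this spread (limma, adjusted p = 0.505). Ifit1, which binds foreign RNA caps, showed the same layout with 10.4, 5.81 and 5.48 FPKM against 7.58, 14.2 and 7.30 FPKM. Its difference was 0.37 (SE 0.28). Ifit2, Ifit3, Usp18 and Rtp4 overlapped likewise, with control 1 above knockouts 1 and 3 in each.

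Bst2 (tetherin, which holds virus particles to the cell surface) had control values of 71.4, 53.3 and 50.6 FPKM and knockout values of 69.7, 107 and 71.5 FPKM. The overlap rested on control 1 and knockout 1, and the difference was 0.48 (SE 0.20, limma adjusted p = 0.251). Ifi27 (50.5, 42.5 and 51.6 against 57.9, 80.9 and 55.5 FPKM) and Ifi35 (14.98, 13.95 and 14.12 against 16.7, 21.3 and 17.1 FPKM) did not overlap. Their differences were 0.40 (SE 0.17) and 0.33 (SE 0.13), with limma adjusted p of 0.250 and 0.226. Ifi44 was not higher, with 4.19 ± 0.862 FPKM in the controls and 4.06 ± 0.809 FPKM in the knockouts (SD, n = 3 each).

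Of the OAS family, the 2′-5′ oligoadenylate synthetases that switch on RNase L, Oas1a read 6.17, 4.41 and 3.20 FPKM in controls and 4.94, 8.58 and 4.67 FPKM in knockouts. Its groups overlapped, as did those of Oasl2. Oas2 went the other way, from 3.45, 4.05 and 4.01 FPKM to 3.51, 3.48 and 2.90 FPKM. For Oas1a, 57.6% of its 50-base runs also occur in other genes, all in Oas1g, so its reads may be split between copies. The same holds for Ifit3 (51.2%, with Ifit3b) and Ifitm2 (48.5%).

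The IFITM genes encode small membrane proteins that block virus entry. Ifitm2 read 121, 110 and 113 FPKM in the controls and 140, 177 and 137 FPKM in the knockouts, with no overlap. The difference was 0.39 (SE 0.14, limma adjusted p = 0.209). Ifitm3, the highest of the family, went from 177 ± 24.3 to 244 ± 68.6 FPKM (SD, n = 3 each), and control 1 (203 FPKM) reached knockout 3 (203 FPKM). Ifitm1 was far lower, at 5.47 to 7.18 FPKM in controls and 7.15 to 9.62 FPKM in knockouts.

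Of the transcription factors, Irf7, which amplifies the type I response, read 46.0, 27.5 and 26.4 FPKM in controls and 36.4, 56.9 and 36.3 FPKM in knockouts. Control 1 again lay above knockouts 1 and 3 (difference 0.38, SE 0.24, limma adjusted p = 0.441). Irf1 overlapped too, at 13.3 to 19.9 against 17.5 to 27.8 FPKM. Stat2 (4.64 to 4.97 against 4.63 to 6.31 FPKM) and Irf9 (6.73 to 6.88 against 6.45 to 7.11 FPKM) were nearly level, although both form the complex that reads the ISRE.

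The interferon-inducible GTPases guard against intracellular pathogens. Iigp1 was the steadiest of them, at 19.3, 18.0 and 16.1 FPKM in the controls and 22.8, 23.4 and 24.1 FPKM in the knockouts. All knockouts exceeded all controls, and knockout 2 was not the highest (difference 0.38, SE 0.11, limma adjusted p = 0.167, exact two-sided permutation p = 0.1). Igtp (13.7, 12.1 and 10.03 against 15.6, 20.8 and 13.8 FPKM) also did not overlap, with 13.72 FPKM in control 1 and 13.84 FPKM in knockout 3. Gbp2 overlapped widely, with control 1 at 31.6 FPKM and knockout 1 at 21.6 FPKM.

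Psmb9 had the largest difference of the 39 at 3 months. It encodes the beta-1i subunit of the immunoproteasome. Its values were 8.99, 7.19 and 6.53 FPKM in the controls and 12.5, 19.1 and 10.6 FPKM in the knockouts, means of 7.57 ± 1.27 and 14.1 ± 4.50 FPKM (SD, n = 3 each). No knockout reached down to a control. The difference was 0.78 (SE 0.21), but the limma adjusted p of 0.135 did not pass, and the exact permutation test (two-sided) returned p = 0.1, the smallest possible with 3 against 3.

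The other immunoproteasome subunits had smaller differences. Psmb10 read 40.9, 35.4 and 33.6 against 49.0, 57.8 and 43.7 FPKM, without overlap (0.44, SE 0.14, limma adjusted p = 0.182). Psmb8 read 27.4, 20.2 and 17.9 against 29.2, 39.4 and 26.3 FPKM, where control 1 lay above knockout 3 (0.52, SE 0.19, limma adjusted p = 0.219). Psme1, an activator subunit that opens the proteasome, read 64.4, 58.9 and 53.5 FPKM in controls and 71.1, 93.2 and 65.0 FPKM in knockouts, and Psme2 overlapped.

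Each immunoproteasome subunit replaces a constitutive one, so ratios within a library were taken as well. Psmb9 over Psmb6 was 0.0486, 0.0447 and 0.0419 in the 3-month controls and 0.0603, 0.0726 and 0.0567 in the knockouts. This ratio, which no rescaling of a library changes, was higher in all 3 knockouts (exact two-sided permutation p = 0.1). The ratios of Psmb8 to Psmb5 (0.195 ± 0.0163 against 0.225 ± 0.0149) and of Psmb10 to Psmb7 (0.352 ± 0.0285 against 0.377 ± 0.0103, SD, n = 3 each) overlapped. Of the constitutive proteasome list, 13 of 16 genes were higher at 3 months (median 0.26), against 65.0% of all genes (median 0.09), and none was called.

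**Figure D2:**
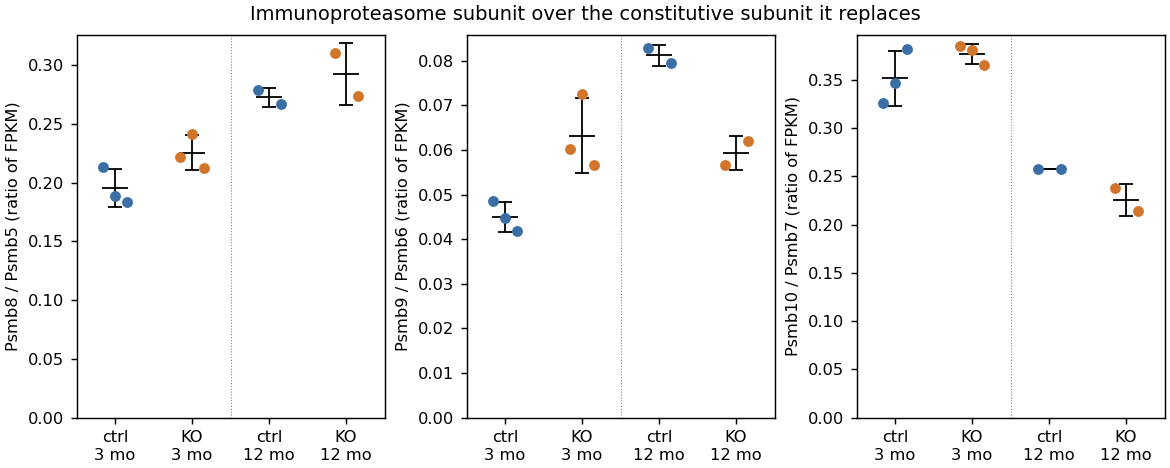
Ratio of FPKM of each immunoproteasome subunit to the constitutive subunit it replaces, by label (ctrl, control, and KO, knockout) and age (mo, months), with points for libraries and bars for the mean and SD. Psmb9 over Psmb6 is higher in all 3-month knockouts and lower in both 12-month knockouts than in the controls of the same age. Psmb10 over Psmb7 is also lower in both 12-month knockouts.

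Psmb9 and Tap1 are neighbours on chromosome 17 that are transcribed away from each other, and their 300-base promoter windows share 275 bases. Tap1, a subunit of the peptide transporter, read 10.6, 7.57 and 5.79 FPKM in the 3-month controls and 8.51, 13.8 and 8.69 FPKM in the knockouts. Unlike Psmb9 it overlapped, with control 1 above knockouts 1 and 3 (0.34, SE 0.23). Psmb9 over Tap1 was 0.974 ± 0.143 in the controls and 1.36 ± 0.132 in the knockouts (SD, n = 3 each), with every knockout above every control (exact two-sided permutation p = 0.1). Psmb9 over Isg15 overlapped, at 0.124 ± 0.0302 in the controls and 0.164 ± 0.0216 in the knockouts (SD, n = 3 each). Tap2, the partner of Tap1, did not overlap (14.1, 15.3 and 11.4 against 16.9, 20.9 and 16.8 FPKM, difference 0.40, SE 0.15). Tapbp (tapasin, which holds the class I chain to TAP) overlapped.

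In the values as deposited, the class I heavy chains were higher in every 3-month knockout for H2-K1, H2-D1 and H2-Q4. Of the 5 class I chains, which include B2m, these 3 were higher without overlap, against 20.1% of all genes. After rescaling by the median of ratios or to TPM 2 were, against 12.7% and 9.01% of all genes. H2-K1 went from 149, 138 and 126 FPKM to 175, 233 and 181 FPKM (0.50, SE 0.15, limma adjusted p = 0.165). H2-D1 went from 179, 157 and 137 FPKM to 186, 247 and 188 FPKM (0.39, SE 0.16), and H2-Q4 from 28.6, 29.0 and 25.3 FPKM to 34.9, 42.0 and 33.4 FPKM (0.40, SE 0.13). The nearest libraries of H2-D1 were control 1 and knockout 1.

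Beta-2 microglobulin, the light chain of all of them, was the most abundant member, at 555, 410 and 437 FPKM against 551, 773 and 558 FPKM. B2m overlapped through control 1 alone (0.42, SE 0.19, limma adjusted p = 0.276). H2-T23, a nonclassical chain, had control 1 (50.9 FPKM) above knockouts 1 and 3. The ratios of H2-K1, H2-D1, H2-Q4 and H2-T23 to B2m all overlapped, H2-K1 over B2m being 0.298 ± 0.0358 and 0.315 ± 0.0116 (SD, n = 3 each). Between 9.63% (H2-K1) and 21.8% (H2-Q4) of the 50-base runs of these 4 chains recur in other genes, so reads may be shared among them. Nlrc5 was low and overlapped, at 2.34, 1.73 and 1.98 FPKM against 1.70, 3.52 and 1.90 FPKM.

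**Figure D3:**
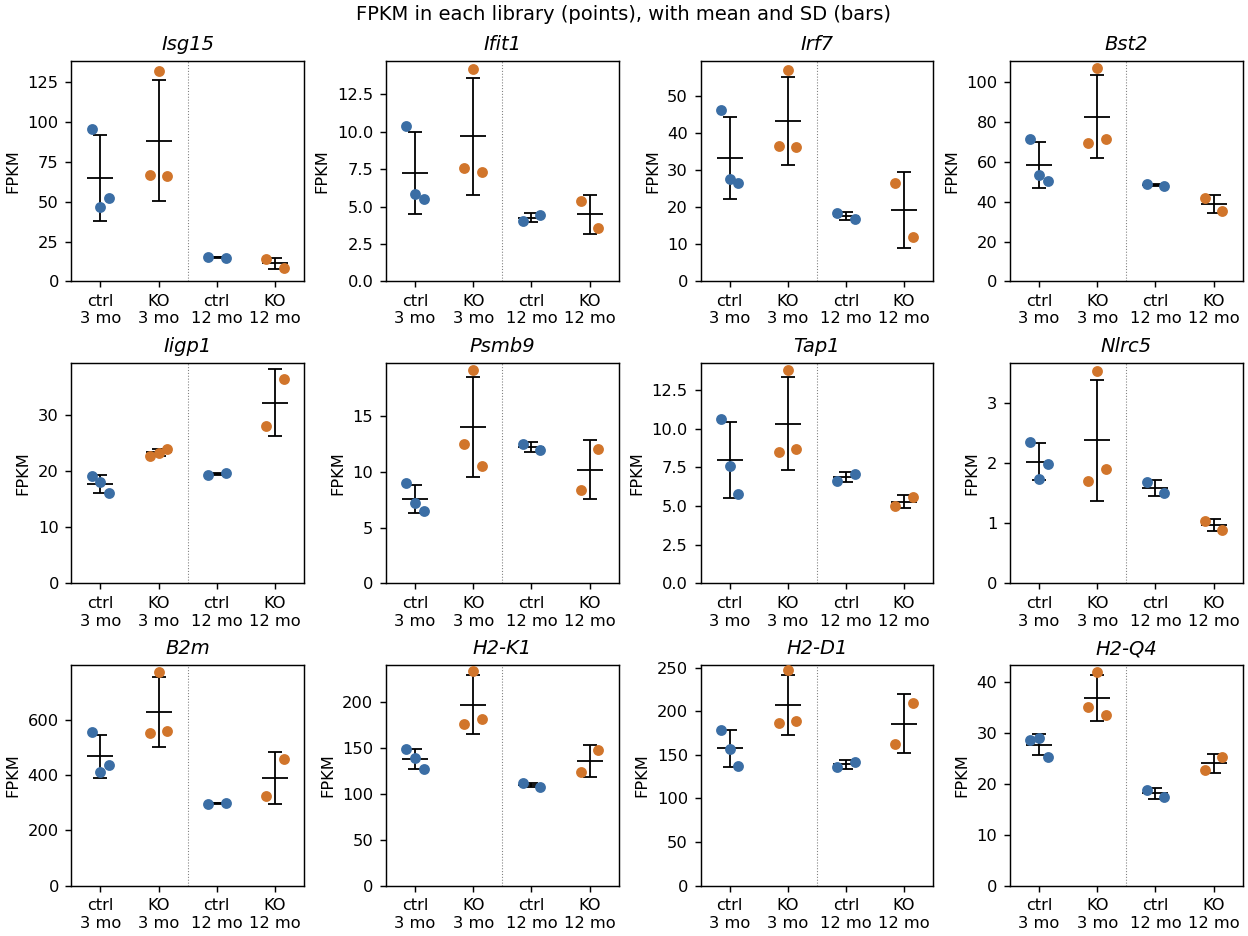
FPKM of 12 members in each library (points), with the mean and SD (bars), by label (ctrl, control, and KO, knockout) and age (mo, months). Isg15, Ifit1, Irf7 and Tap1 have a high control point at 3 months that reaches the knockouts, while Iigp1, Psmb9, H2-K1, H2-D1 and H2-Q4 do not overlap at that age.

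Interferon transcripts themselves were near absent. None of the 20 ligand genes passed the filter, and 18 were listed at 0 in every 3-month library and 17 in every 12-month library. Ifng, named for its role after its values were seen, reached at most 0.370 FPKM, in a 3-month library. Among 15 tested genes of the receptors and signalling chain, 11 were higher at 3 months, against 65.0% of all genes, and none was called. Their median of 0.09 was that of all genes. Ifnar2, a chain of the type I receptor, was 19.7 ± 1.53 FPKM in controls and 24.8 ± 4.88 FPKM in knockouts (SD, n = 3 each). Of 53 other interferon-induced genes tested, 44 were higher at 3 months, against 65.0% of all genes, and none was called. Their median was 0.17, against 0.09 for all genes. The lowest p in that list was that of Ifit1bl1, at 1.74 ± 0.167 FPKM in controls and 2.79 ± 0.186 FPKM in knockouts (SD, n = 3 each, limma adjusted p = 0.123).

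Other class I genes and loading factors were higher for 11 of 14 tested genes at 3 months, against 65.0% of all genes, and none was called. Calr (calreticulin, a chaperone of class I assembly) went from 118, 116 and 109 FPKM to 150, 181 and 159 FPKM, without overlap (limma adjusted p = 0.116). Of the class II genes, which present peptides to CD4 T cells, 6 of 6 tested were higher, against 65.0% of all genes. Of these 5 did not overlap, against 20.1% of all genes in that direction. The class II list summed to 297 to 344 FPKM in controls and 407 to 594 FPKM in knockouts. Knockout 2 was again the highest.

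The sums of several marker lists did not overlap between the labels at 3 months, and not only those of immune and blood cells. All genes summed to 516272 to 673686 FPKM in controls and 626492 to 718787 FPKM in knockouts, and 65.0% of genes tested were higher (median 0.09). Endothelial markers summed to 749 to 848 FPKM in controls and 881 to 983 FPKM in knockouts, with 5 of 10 genes higher (median −0.02). Most of that sum was Fabp4 (means of 529 and 621 FPKM). Cardiomyocyte markers summed to 23650 to 29496 and 30799 to 33033 FPKM, with 5 of 9 higher (median 0.11). Neutrophil markers summed to 5.63 to 10.6 and 10.8 to 13.3 FPKM. None of these 3 lists held a called gene, and the sums of fibroblast and dendritic cell markers overlapped. Of the 16 T and NK cell markers 5 passed the filter, 5 were higher and 3 were called (Trbc2, Nkg7 and Gzma), and the list summed to 4.19 to 6.12 FPKM in controls and 14.96 to 24.2 FPKM in knockouts. Trbc2, a T cell receptor constant segment, was 0.400 ± 0.123 and 2.74 ± 0.579 FPKM (SD, n = 3 each, limma adjusted p = 0.00849). These low genes passed the filter through their knockout values, so the count higher in this list gives no direction. Of all genes 0.746% were called. B and plasma cell markers summed to 34.2 to 36.3 and 85.2 to 263 FPKM, with 6 of 8 tested, 6 higher and Igha called. Low genes among them, such as Cd79a (means of 0.760 and 2.00 FPKM), passed the filter in the same way. The count of 6 higher was therefore partly fixed by the filter. Macrophage and monocyte markers overlapped at 301 to 428 and 394 to 650 FPKM, with 11 of 13 higher and none called. Red blood cell markers were called higher for 5 of 5 tested, where 0.746% of all genes were called in either direction. The airway gene Scgb1a1 ran from 10.6 to 26.8 FPKM in controls and was at most 0.319 FPKM in knockouts. The 3 airway and lung genes tested passed the filter through their control values, so their count gives no direction. The part of these cell types in the values of the 39 members was not tested.

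**Figure D4:**
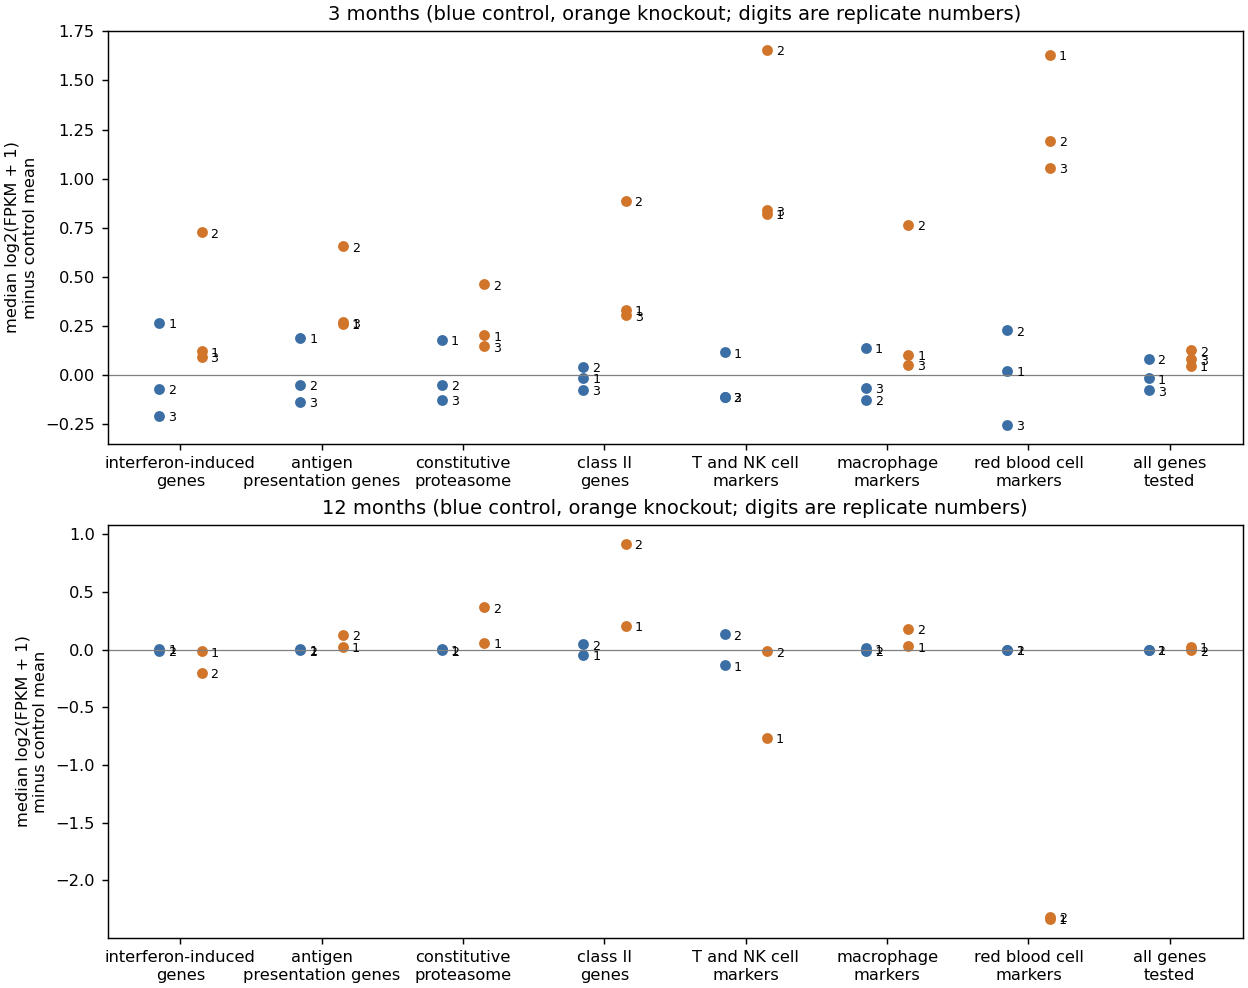
Median over each gene list of log2(FPKM + 1) minus the control mean of the same age, 1 point per library (blue control, orange knockout, digits for replicate numbers). Values are as deposited, without rescaling. At 3 months the interferon-induced genes overlap between labels. The antigen presentation genes, class II genes, T and NK cell markers and red blood cell markers do not. Medians are over genes that passed the filter, which for low T and NK cell genes was through their knockout values.

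At 12 months the 39 members showed no common direction. In the knockout mean 19 of 39 were higher, against 51.5% of genes, and they were 10 of 25 interferon-induced and 9 of 14 antigen presentation genes. After median-of-ratios rescaling it was 19 (49.7% of genes), and after TPM rescaling 7 (18.7%), of which 4 were interferon-induced and 3 antigen presentation genes. That rescaling moved the median of all 13179 genes tested from 0.01 to −0.27. The medians of the interferon-induced and antigen presentation genes were −0.02 and 0.10, and after TPM rescaling −0.33 and −0.22. None of the members was called by limma, where 0.395% of genes were, and 4 of 39 had an unadjusted p under 0.05 (13.6% of genes, 7.58% higher): Ifitm1, Iigp1 and H2-Q4 higher, Rtp4 lower. Limma without a trend called none either. The groups did not overlap for 9 members higher and 10 lower, 48.7% of members, against 50.3% of genes (27.3% higher). The counts were the same after median-of-ratios rescaling (25.4% higher, 50.1% in either direction), and 3 higher and 24 lower after TPM rescaling (7.85% and 65.6%). With 2 against 2 libraries the smallest exact permutation p is 0.33.

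Single knockout libraries decided the calls at this age. Without knockout 1, limma called 18 of the 39 members, 8 of them higher, and 4409 of all genes. Without knockout 2 it called Ifitm1 alone and 654 of all genes, and without either control 0. In these fits 1 lone knockout is assumed to vary as the controls do, and those controls hardly differ from each other.

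Ifitm1 had the largest difference at 12 months, at 3.53 and 3.47 FPKM in the controls and 7.56 and 5.87 FPKM in the knockouts (0.77, SE 0.16, limma adjusted p = 0.229). Iigp1 followed at 19.4 and 19.7 against 28.1 and 36.5 FPKM (0.68, SE 0.16, limma adjusted p = 0.253). Both were higher in the knockout mean at 3 months too. Ifitm2 overlapped, at 98.9 ± 0.597 and 104 ± 8.53 FPKM, and Ifitm3 was lower in both knockouts, at 132 ± 0.398 and 119 ± 11.1 FPKM (SD, n = 2 each).

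The class I chains were the one role in which all members were higher at 12 months, 5 of 5 with a median of 0.37, of which 3 stayed above 0 after TPM rescaling, with a median of 0.05, or 0.31 above that of all genes. H2-D1 read 136 and 142 FPKM in the controls and 162 and 209 FPKM in the knockouts (0.41, SE 0.16). H2-Q4 read 18.8 and 17.3 against 22.7 and 25.3 FPKM (0.39, SE 0.12, limma adjusted p = 0.317), and B2m 295 and 299 against 323 and 457 FPKM (0.37, SE 0.20). H2-K1 went from 111 and 108 FPKM to 123 and 148 FPKM (0.30, SE 0.14), and was −0.02 after TPM rescaling. In all 4 genes knockout 2 was the higher knockout, and H2-T23 overlapped. Higher without overlap were 4 of the 5 chains as deposited (27.3% of all genes) and 1 after TPM rescaling (7.85%). Of the other class I genes and loading factors, 6 of 12 tested were higher at 12 months, against 51.5% of all genes. Their median was −0.03 and none was called. That list summed to 515 to 523 FPKM in the controls and 437 to 475 FPKM in the knockouts.

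Several effectors and regulators were lower in both 12-month knockouts. Rtp4, a chaperone of receptor traffic, read 8.54 and 7.63 FPKM in the controls and 6.27 and 5.31 FPKM in the knockouts (−0.42, SE 0.14, limma adjusted p = 0.340). Nlrc5 read 1.678 and 1.497 against 1.04 and 0.895 FPKM (−0.40, SE 0.16), and Tap1 6.64 and 7.09 against 5.01 and 5.57 FPKM (−0.32, SE 0.12). Nlrc5 and Tap1 thus lay opposite to B2m, H2-K1, H2-D1 and H2-Q4 in both knockouts, without passing the test, while H2-T23 was below both controls in knockout 1 and above them in knockout 2.

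Isg15 was lower as well, at 15.4 and 14.8 against 13.8 and 8.72 FPKM (−0.42, SE 0.24, limma adjusted p = 0.496), and Bst2 at 48.8 and 48.0 against 42.1 and 35.5 FPKM (−0.32, SE 0.13). The knockouts were uneven for others. Stat2 (5.77 and 3.20 FPKM), Irf9 (12.3 and 7.03 FPKM) and Gbp3 (8.72 and 5.07 FPKM) were low in knockout 2, while Irf7 was 26.4 FPKM in knockout 1 and 12.0 FPKM in knockout 2, above and below both controls. Of the 25 interferon-induced genes, 19 were higher in knockout 1 than in knockout 2, and of the 14 antigen presentation genes 3 were.

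Psmb9 overlapped between the labels at 12 months, at 12.5 and 11.9 FPKM in the 12-month controls and 8.37 and 12.1 FPKM in the knockouts (−0.26, SE 0.20, limma adjusted p = 0.593). Its ratio to Psmb6 was 0.0812 ± 0.00242 in the controls and 0.0593 ± 0.00375 in the knockouts (SD, n = 2 each), lower in both (exact two-sided permutation p = 0.33). Psmb10 over Psmb7 was lower in both knockouts too, at 0.258 ± 0.000218 and 0.226 ± 0.0165 (SD, n = 2 each), while Psmb8 over Psmb5 overlapped. At this age 50.3% of single genes did not overlap in either direction. In level, Psmb8, Psmb10, Psme1 and Psme2 overlapped. All 16 constitutive proteasome genes were higher in the knockout mean (median 0.23), against 51.5% of all genes, none of them called.

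Of 50 other interferon-induced genes tested at 12 months 10 were higher, against 51.5% of all genes, with a median of −0.14, and none was called. Among them were Isg20, a nuclease, at 12.2 ± 0.890 against 6.25 ± 0.226 FPKM (limma adjusted p = 0.134) and Rsad2 (viperin) at 10.2 ± 0.513 against 6.41 ± 0.657 FPKM. Ifit1bl1, the gene of next lowest p, was higher as at 3 months, at 2.60 ± 0.181 against 5.10 ± 1.10 FPKM (SD, n = 2 each, limma adjusted p = 0.253), and 3 of the 7 genes of this list with an unadjusted p under 0.05 were higher. Dhx58, an RNA sensor of the RIG-I family, went from 3.91 ± 0.525 to 1.12 ± 0.377 FPKM (SD, n = 2 each, limma adjusted p = 0.184). Class II genes were higher for 6 of 7 tested, with H2-Eb1 at 17.2 and 18.4 against 27.3 and 47.0 FPKM. The T and NK cell markers, whose sum was higher in the 3-month knockouts, summed to 14.2 to 15.1 FPKM in the 12-month controls and 7.86 to 13.0 FPKM in the knockouts. Only 3 of these 16 markers passed the filter at 12 months, and each overlapped between the labels (lowest limma adjusted p = 0.631). Red blood cell markers were called lower for 5 of 5 tested, where 0.395% of all genes were called in either direction. Of the fibroblast markers 7 of 8 were lower, with none called. What these lists and sex-linked expression contribute to the members was not tested.

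**Figure D5:**
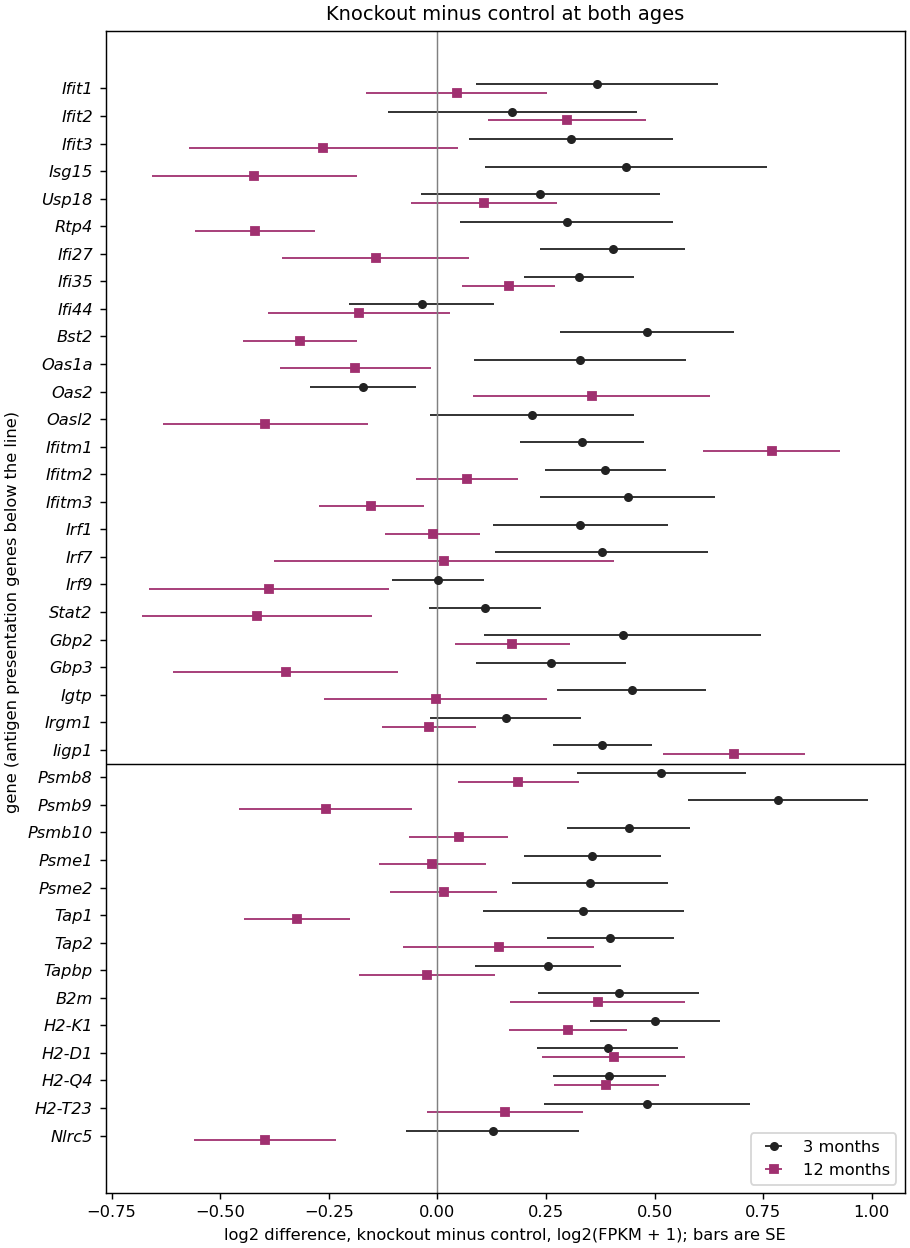
Difference between knockout and control for each of the 39 genes on the log2(FPKM + 1) scale (bars, SE) at 3 months (black circles) and 12 months (purple squares). At 3 months 37 points lie above 0, with Psmb9 furthest at 0.78, and at 12 months Ifitm1 and Iigp1 lie furthest above 0.

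The change of the knockout difference between the ages was tested with all 10 libraries and 11580 genes. None of the 39 members was called (1.38% of genes were), and 2 had an unadjusted p under 0.05, where 15.3% of genes did. Psmb9 was 1 of them, its difference at 12 months being lower than that at 3 months by −1.04 (SE 0.33, limma adjusted p = 0.155). The other was Bst2, at −0.80 (SE 0.29, limma adjusted p = 0.218). The 12-month difference was the lower one for 34 of 39 members, where it was for 6859 of 11580 genes. The median was −0.34 over the members against −0.08 for all genes, and −0.27 for all genes after TPM rescaling. For the class I chains the median was −0.05. Library preparation, sequencing site and sex-linked expression differ between the ages and cannot be told apart from age here.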

How the data were processed

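RNA-seq of mouse hearts was deposited as 1 table of FPKM per age. Per the submitters' processing notes, which give no roles or order, the tools were Cufflinks 2.1.1, STAR 2.5.1b, TopHat2 2.1.0 and FastQC, and the build mm10 or GRCm38. The authors' FPKM values are scaled by length and depth. By its title, the 12-month table leaves out outliers. Per the labels' protocols, the 3-month libraries were poly(A) and strand-specific, while the kit at 12 months is not stated.

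Rows repeating an identifier (69 at 3 months) were summed. Within each age, genes averaging 1 FPKM or more were fitted on log2(FPKM + 1) with limma 3.58.1 (R 4.3.3, trend), with Benjamini-Hochberg adjustment over all genes, called under 0.05. Residual degrees of freedom were 4 at 3 months, 2 at 12 months and 6 over both ages. A fold change on this scale understates the change of low genes. Exact permutation tests were two-sided. Gene lists are described by counts and medians, with no test. The fit was tested on simulated data. Named genes were all members, up to 3 genes of lowest p per list and age, sex-linked genes and Prdm16. The members and lists were chosen with earlier results of these data known.

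At 12 months, 88.1% to 89.3% of low values equalled whole reads to within 0.05, giving 21.4 to 30.8 M reads. At 3 months the share was 20.0% to 34.8%, so depth is unknown there, and no interval from counts is given. Same-numbered libraries did not deviate together, so numbers were not used as pairs. Alternatives were pseudocounts of 0.1 and 5, no filter or a mean of at least 5 FPKM, median-of-ratios and TPM rescaling, no trend, the replicate block, leaving out each library, and, added after seeing the data, averaging the 12-month controls. Protein sequences were not analysed here.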

Additional observations from a re-analysis of the deposited data

How the results depend on the processing

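No member was called at either age or between ages under any alternative that kept all libraries. Leaving out 1 library gave 0 to 18 called members at 12 months and 0 to 2 between ages (Irf9 and Stat2 without 12-month knockout 1, and Oas2 without 12-month knockout 2). Among all genes, the count of 91 at 3 months became 10 without the filter and 22 to 81 with 1 library left out. The count of 52 at 12 months became 17 without the filter, 0 with the controls averaged to 1 and 0 to 4409 with 1 library left out, and that of 160 between ages became 40 to 787. Same-numbered libraries share only a number (correlations of their deviations −0.12, −0.46 and −0.14 at 3 months, −0.01 at 12 months), and with the replicate block 29 genes were called at 3 months and 55 between ages. TPM rescaling moved the 12-month medians to −0.33 (interferon-induced) and −0.22 (antigen presentation), the antigen presentation median between ages to −0.54, and reversed H2-K1 at 12 months to −0.021. The median of all genes was then −0.27 both at 12 months and between ages. With 1 library left out, the 12-month medians ran from −0.20 to −0.015 (interferon-induced) and from 0.027 to 0.13 (antigen presentation), and the antigen presentation median between ages from −0.44 to −0.16. The cause of these shifts was not tested, except that fewer samples or more genes enter those fits by construction. Depth is unknown at 3 months.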
